A study of Mus musculus with 6 samples.

Results

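The genes described here are the FGF receptors and the Sprouty family feedback genes of mammary fibroblasts: Fgfr1, Fgfr2, Fgfr3, Fgfr4, Fgfrl1, Spry1, Spry2, Spry4, Spred1 and Spred2. They were chosen by gene name, with earlier results of these data known, and they are 10 of the 27179 genes in the deposited count table. Expression was measured by bulk RNA-seq in CD34hi and CD34lo fibroblasts, isolated by flow cytometry as Lin-CD24-Pdgfrα+ cells (Lin, a mixture of antibodies against CD31, CD45 and TER-119) from the mammary glands of female FVB/N mice in puberty, at 6 weeks of age. The mice carried no transgene or treatment that the labels name. Both populations were taken from each of 3 pools of 2 mice, which made 3 CD34hi and 3 CD34lo libraries, and libraries with the same pool number came from the same animals. Neither population is a single cell type fixed by lineage, since both were gated on the level of 1 surface protein, and counts per gene do not separate the splice forms of a receptor.

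Fibroblast growth factors bind receptor tyrosine kinases on the cell surface together with heparan sulfate, and the activated receptor recruits adaptors that switch on Ras, Raf, MEK and ERK. ERK in turn induces ETS-family transcription factors and a set of inhibitors, among them the Sprouty and Spred proteins, which bind at the membrane and dampen the path from the receptor to ERK, and the dual-specificity phosphatases, which act on ERK itself. In the mammary gland, stromal FGFs such as Fgf7 and Fgf10 are known as signals to the Fgfr2b form on ductal epithelium, so that receptors on the fibroblasts themselves are a separate matter from the epithelial response.

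The totals counted on genes were between 36740921 and 45958181 per CD34hi library (median 45566729) and between 28764779 and 52402410 per CD34lo library (median 29782245). At these depths 3 counts, taken as the floor of detection, lay between 0.0553 and 0.108 in CPM (TMM-normalised counts for a library of 1000000), a limit that covers counting error only. Fold changes are given as CD34hi vs CD34lo on the log2 scale, so that a negative value means a higher level in CD34lo, and adjusted p-values are those of the quasi-likelihood test in edgeR, adjusted by the Benjamini-Hochberg procedure over the 15219 genes tested; SE is the standard error. Cd34 itself, the gene of the sorting marker, had 2490, 2640 and 2580 CPM in the CD34hi libraries of pools 1, 2 and 3, and 476, 793 and 632 CPM in the CD34lo libraries. This was a log2 fold change of 2.02 (SE 0.20, adjusted p = 9.66e-05, edgeR). Pdgfra, the other gene used in the gate, also separated the populations, with 637, 703 and 922 CPM in CD34hi and 1040, 1320 and 1420 CPM in CD34lo (log2 fold change -0.74, adjusted p = 0.0148, edgeR). The replicate libraries of a population differed beyond sampling noise (chi-square of 24 or more per degree of freedom in every pair).

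Markers of other cell types moved with the sort in both directions. Of 6 leukocyte markers, 3 were tested and 1 passed: Fcgr2b, an Fc receptor gene, had means of 0.518 CPM in CD34hi and 36.0 CPM in CD34lo, while Ptprc, which encodes CD45, was at 0.149 and 0.252 CPM. The summed leukocyte list was at 2.93 to 3.22 CPM in CD34hi and 27.7 to 48.8 CPM in CD34lo. Of 9 epithelial markers, Krt19 was higher in CD34hi (log2 fold change 2.66) and Itga6 higher in CD34lo (-1.26), and the sum of the list was at 73.9 to 98.7 CPM in CD34hi against 42.5 to 53.5 CPM in CD34lo. Epcam, which defines epithelium, was low in both, with means of 5.96 and 4.82 CPM. The sums of 6 endothelial markers (53.3 to 97.9 and 37.5 to 63.8 CPM) and of 5 pericyte markers (134 to 190 and 141 to 219 CPM) overlapped between populations. Within each list 3 members were higher in CD34lo and 1 in CD34hi. Kdr held most of the endothelial sum in CD34hi (means of 53.1 and 6.06 CPM), while Pecam1, Cdh5 and Emcn were higher in CD34lo. The pericyte sum was mostly Abcc9, which did not pass (123 and 106 CPM), and Kcnj8, higher in CD34hi (34.7 and 13.3 CPM). Rgs5, Mcam and Notch3 were higher in CD34lo, Notch3 with means of 4.44 and 43.1 CPM. An overlap of these sums therefore does not show equal content of these cells. The 5 Schwann cell markers summed to 42.7 to 52.8 CPM in CD34hi and 22.3 to 28.3 CPM in CD34lo (1 higher in CD34hi, 3 in CD34lo), the 2 keratinocyte markers to 14.3 to 19.9 and 3.6 to 7.12 CPM (both higher in CD34hi), and the 4 muscle markers to 1.27 to 1.57 and 3.5 to 3.88 CPM (1 higher in CD34lo). The 5 fibroblast markers summed to 28400 to 31900 and 31500 to 36400 CPM, with 1 higher in CD34hi and 3 in CD34lo. No marker was at 0 in all libraries. The part of these cells in the results below was not tested, and in bulk samples fewer cells of a type and less RNA per cell cannot be told apart.

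All 9 members that passed the filter on low counts differed between the populations, and the 2 groups of libraries did not overlap for any of the 10. Fgfr1 and Spry2 were higher in CD34hi fibroblasts. Fgfr2, Fgfr3, Fgfrl1, Spry1, Spry4, Spred1 and Spred2 were higher in CD34lo fibroblasts, and Fgfr4, which was too low to be tested, had its reads almost entirely in CD34lo. Differences were frequent in this comparison as a whole: 35.6% of all tested genes passed (16.9% higher in CD34hi and 18.7% higher in CD34lo), 50.1% had libraries that did not overlap, and 19.6% both passed and had a log2 fold change of 1 or more in size, as 8 of the members did. The median log2 fold change was -1.25 over the 9 tested members and -0.0064 over all tested genes. Because the members were chosen with earlier results known, this comparison with all genes is a description and not a test.

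**Figure D1:**
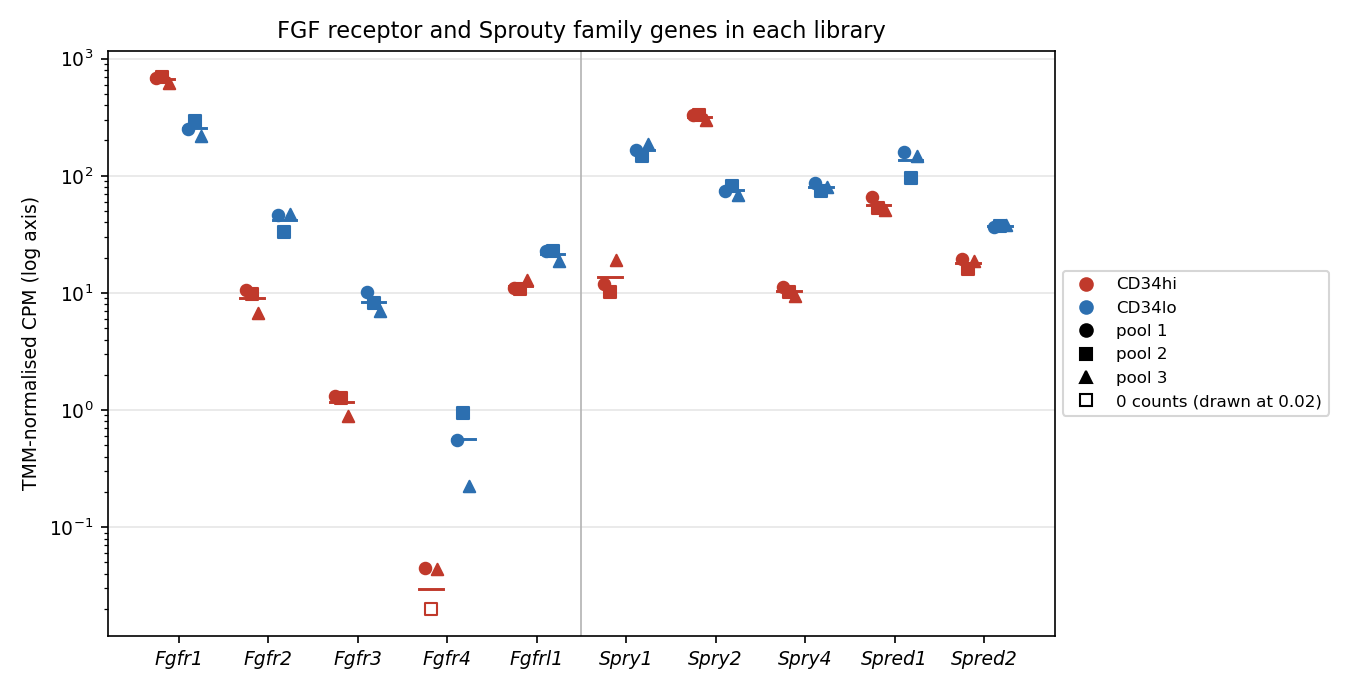
Level of each gene in each library, in TMM-normalised CPM on a log axis; red marks CD34hi, blue marks CD34lo, symbols mark the 3 mouse pools, and the short lines are means of 3 libraries. For every gene the 3 libraries of one population lie wholly above the 3 of the other: CD34hi is above for Fgfr1 and Spry2, CD34lo for the rest. The CD34hi library of pool 2 had 0 counts of Fgfr4 and is drawn as an open symbol at 0.02.

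Among the receptors, Fgfr1, the main FGF receptor of mesenchymal cells, was the only one that was higher in CD34hi. Fgfr1 (gene 14182, chr8:25518772-25575714, plus strand, GRCm38) was measured at 679, 692 and 624 CPM in CD34hi and at 251, 295 and 218 CPM in CD34lo. The lowest CD34hi library thus lay far above the highest CD34lo library. It had a log2 fold change of 1.38 (SE 0.15, adjusted p = 0.000145, edgeR), a 2.61-fold difference. The level was high in both populations, with 98.2% of tested genes below it.

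Fgfr2, which encodes the receptor for Fgf7 and Fgf10 in its epithelial splice form and for other ligands in its mesenchymal form, went the opposite way. Fgfr2 (gene 14183, chr7:130162451-130266808, minus strand) had 10.5, 9.85 and 6.77 CPM in CD34hi and 45.9, 32.9 and 47.0 CPM in CD34lo. The fitted log2 fold change was -2.21 (SE 0.21, adjusted p = 7.44e-05, edgeR), with the smallest difference in pool 2 (-1.73) and the largest in pool 3 (-2.79). Epcam, the epithelial marker, did not pass (log2 fold change 0.31, adjusted p = 0.353), while Itga6 was higher in CD34lo, as was Fgfr2. The lower epithelial sum in CD34lo rested on Krt19: without it, a sum added after seeing the data, the other 8 markers lay at 36.9 to 41.8 CPM in CD34hi and 35.4 to 44.4 CPM in CD34lo. The part of epithelial or other cells in the Fgfr2 difference was not tested.

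Fgfr3, a receptor best known for restraining bone growth, was low in both populations and showed the largest tested difference among the receptors. Fgfr3 (gene 14184, chr5:33721724-33737068, plus strand) had 1.32, 1.27 and 0.882 CPM in CD34hi, from between 40 and 59 counts, and 10.2, 8.13 and 6.94 CPM in CD34lo, from between 216 and 554 counts. The difference on the log2 scale was -2.87 (SE 0.25, adjusted p = 4.55e-05, edgeR), and the pools gave -2.91, -2.63 and -2.91.

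Fgfr4, a receptor known mainly from liver and muscle, was near the floor of detection. Fgfr4 (gene 14186, chr13:55152818-55168759, plus strand) had 2, 0 and 2 counts in the CD34hi libraries and 30, 26 and 7 counts in the CD34lo libraries. Summed over libraries these were 4 counts (exact 95% Poisson interval 1.09 to 10.2) and 63 counts (48.4 to 80.6), a ratio of normalised counts of 17.6 for CD34lo to CD34hi, with an exact conditional binomial interval from 6.54 to 66.5 that covers counting error only. The gene did not pass the low-count filter and so had no p-value in the reported test. Giving the values of Fgfr4 from the 18 alternative analyses, which were run over all genes, was decided after the data were seen. The gene was tested in 9 of them. Its adjusted p-value there ran from 0.000554 (DESeq2) to 0.0385 (edgeR, without pool 2). Apart from DESeq2 and the fit without a filter, these analyses left out libraries. In them Fgfr4 passed the filter only through its CD34lo libraries, so that their p-values add no support to its direction.

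Fgfrl1 encodes a receptor that binds FGFs but lacks the tyrosine kinase domain, and it had the smallest difference of the members. Fgfrl1 (gene 116701, chr5:108694229-108706950, plus strand) had 11.1, 10.8 and 12.8 CPM in CD34hi and 22.8, 22.7 and 18.9 CPM in CD34lo. Its log2 fold change was -0.89 (SE 0.14, adjusted p = 0.00116, edgeR), and the difference was smaller in pool 3 (-0.56) than in pools 1 and 2 (-1.04 and -1.07).

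Put on one scale by dividing by the gene length of the deposited table (RPKM, normalised CPM per kilobase), the receptor genes summed to 138, 140 and 126 RPKM in CD34hi and to 61.2, 67.2 and 54.0 RPKM in CD34lo. Fgfr1 made up 98.3%, 98.5% and 98.8% of the sum of Fgfr1 to Fgfr4 in CD34hi and 81.9%, 87.7% and 80.6% in CD34lo. The share therefore lay 15.2 percentage points lower in CD34lo, and no CD34lo library reached the CD34hi range; the exact two-sided permutation test gave p = 0.1, the smallest that 3 libraries against 3 allow. Fgfr2 supplied most of the rest, with shares of 1.43%, 1.31% and 1.01% in CD34hi and 14.0%, 9.16% and 16.3% in CD34lo. Fgfr3 had mean shares of 0.194% and 3.16%. The number of Fgfr1 RPKM per Fgfr2 RPKM was 68.9, 75.0 and 98.3 in CD34hi and 5.84, 9.57 and 4.95 in CD34lo. Fgfr1 was thus the most abundant receptor mRNA of every library, and the populations differed in how much of the other receptors stood beside it.

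**Figure D2:**
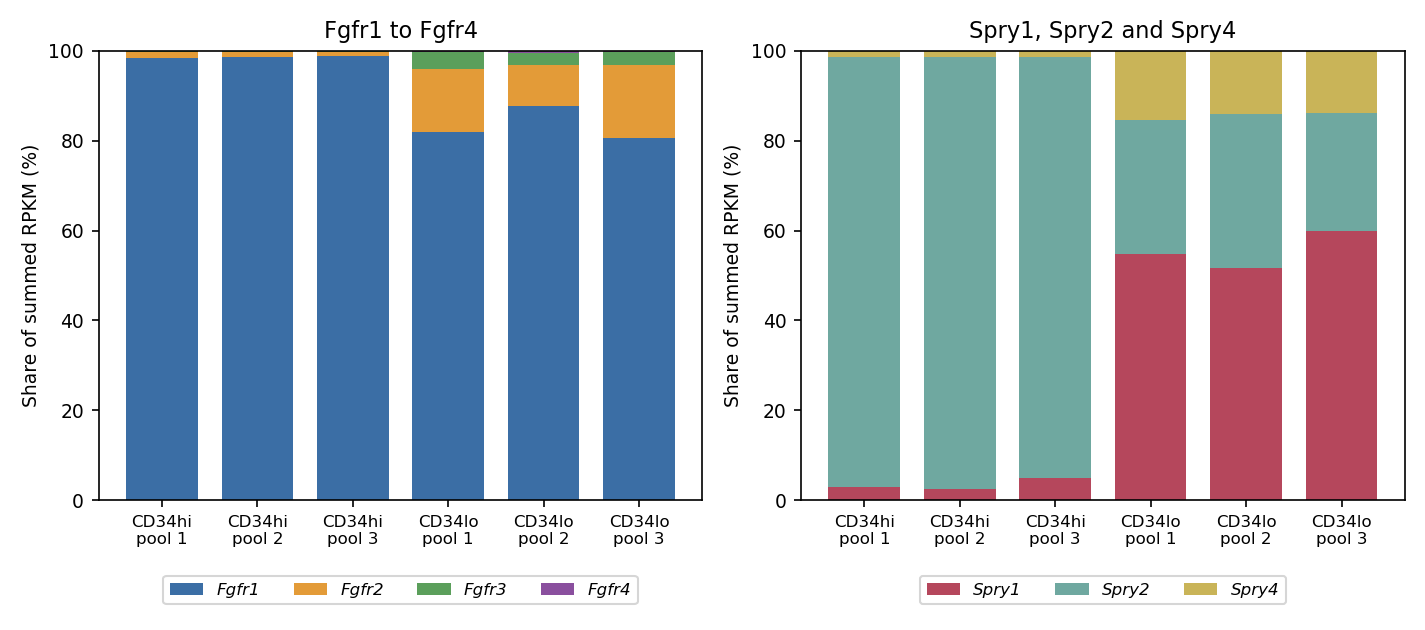
Share of each gene, in percent, in the summed RPKM of Fgfr1 to Fgfr4 (left) and of Spry1, Spry2 and Spry4 (right), with 1 stacked bar per library. Fgfr1 fills 98.3% or more of the receptor bar in each CD34hi library and at most 87.7% in CD34lo, while Spry2 fills 93.6% or more of the Sprouty bar in CD34hi and at most 34.3% in CD34lo.

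The Sprouty genes also differed in both directions. Spry1 and Spry4 were higher in CD34lo, and Spry2 was higher in CD34hi. The products of all 3 are membrane-associated inhibitors of signalling from receptor tyrosine kinases to ERK and are themselves induced by FGF. The first 250 bases upstream of the RefSeq start sites of Spry1 (chr3:37639697-37639946, plus strand) and Spry2 (chr14:105896820-105897069, minus strand, both GRCm38.p6) are shown 5′ to 3′ because this pair carries the opposite directions. Capitals mark GGGCGG on either strand, the GC box, and the same marking would show CGGAAG or its reverse complement CTTCCG, the core bound by ETS factors.
Spry1: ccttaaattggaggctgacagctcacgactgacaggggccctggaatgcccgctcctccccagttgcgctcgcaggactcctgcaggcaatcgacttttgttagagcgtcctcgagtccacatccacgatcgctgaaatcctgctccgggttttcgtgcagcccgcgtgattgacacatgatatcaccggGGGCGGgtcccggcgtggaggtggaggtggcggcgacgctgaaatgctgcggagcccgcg
Spry2: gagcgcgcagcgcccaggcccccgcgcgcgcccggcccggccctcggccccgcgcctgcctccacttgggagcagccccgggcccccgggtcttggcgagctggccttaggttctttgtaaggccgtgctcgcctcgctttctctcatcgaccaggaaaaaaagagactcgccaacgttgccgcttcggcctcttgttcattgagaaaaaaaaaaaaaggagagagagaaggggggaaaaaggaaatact
The Spry1 window held 1 GC box, 60 bases before the start site, and the Spry2 window held none; neither window held the ETS letters. Both windows were 62.4% G or C, against a median of 52.4% over all promoters in the table.

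Spry1 (gene 24063, chr3:37639950-37644599, plus strand) had the largest difference of the 9 tested genes. Its levels were 12.0, 10.2 and 19.2 CPM in CD34hi and 165, 148 and 188 CPM in CD34lo, so that the populations were separated by far more than the spread of either. It had a log2 fold change of -3.59 (SE 0.24, adjusted p = 1.46e-05, edgeR), a 12.0-fold difference, and 2.88% of all tested genes had a larger absolute change. Pool 3 had the highest Spry1 level in both populations and the smallest difference (-3.29, against -3.77 and -3.85). An unnamed gene on the opposite strand overlaps Spry1 in the table, with 59 counts over all libraries against 20657 for Spry1.

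Spry4 (gene 24066, chr18:38586265-38601268, minus strand) followed the direction of Spry1 with less variation. It had 11.3, 10.2 and 9.48 CPM in CD34hi and 85.9, 73.5 and 80.8 CPM in CD34lo. The fitted log2 fold change was -2.95 (SE 0.13, adjusted p = 2.13e-06, edgeR), which was the smallest adjusted p-value of the members, and the pools gave -2.92, -2.85 and -3.08.

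Spry2 (gene 24064, chr14:105891947-105896819, minus strand) was the exception in its family. It had 329, 329 and 299 CPM in CD34hi and 74.6, 82.2 and 69.1 CPM in CD34lo, and no library of one population came near the range of the other. The difference on the log2 scale was 2.08 (SE 0.12, adjusted p = 7.27e-06, edgeR), with 2.14, 2.0 and 2.11 in the pools. Together with Fgfr1 it was therefore higher in the population in which the other 8 genes were lower.

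With 1 Sprouty gene higher in CD34hi and 2 higher in CD34lo, the sum of the family moved little compared with its make-up. Spry1, Spry2 and Spry4 summed to 165, 164 and 153 RPKM in CD34hi and to 121, 115 and 126 RPKM in CD34lo, a ratio of means of 1.33. Spry1 was 2.93%, 2.5% and 5.04% of this sum in CD34hi and 54.8%, 51.7% and 59.8% in CD34lo, a difference in means of -52.0 percentage points (exact two-sided permutation p = 0.1, the smallest possible with 3 against 3). Spry2 was 95.6%, 96.1% and 93.6% of it in CD34hi and 29.7%, 34.3% and 26.3% in CD34lo. Spry4 was between 1.35% and 1.5% in CD34hi and between 13.9% and 15.5% in CD34lo. Per RPKM of Spry2 there were 0.0306, 0.026 and 0.0539 RPKM of Spry1 in CD34hi and 1.85, 1.51 and 2.28 in CD34lo, so that the order of the pair was reversed in every pool. In contrast, the number of Spry1 RPKM per Spry4 RPKM overlapped between the populations (1.85 to 3.74 in CD34hi and 3.53 to 4.29 in CD34lo). The remaining Sprouty gene of the table, Spry3, had 0 counts in all 6 libraries. Its deposited position is on a scaffold and not on a chromosome, and whether reads could be assigned there is not given. The 0 counts therefore set no upper limit on Spry3.

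**Figure D3:**
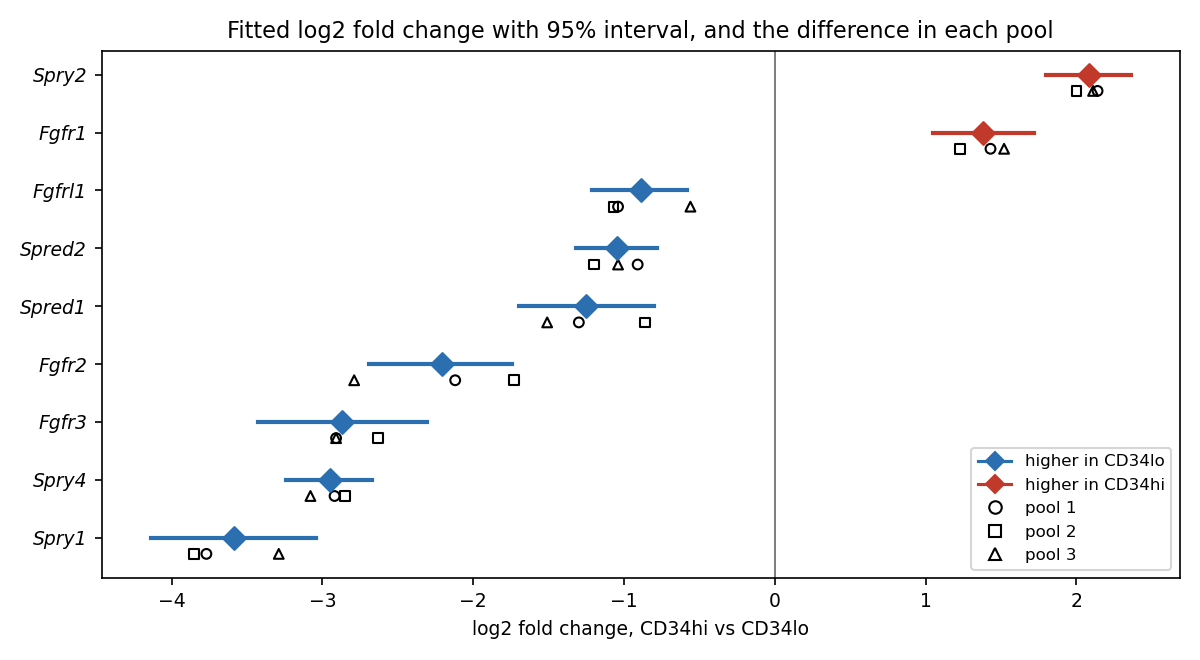
Fitted log2 fold change of CD34hi vs CD34lo with its 95% interval (diamonds and bars) for the 9 tested genes, and the difference within each mouse pool (open symbols). No interval reaches 0, and all 3 pools lie on the same side for each gene; Spry1 is farthest to the CD34lo side at -3.59 and Spry2 farthest to the CD34hi side at 2.08.

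The Spred genes encode relatives of Sprouty with an EVH1 domain, which bring neurofibromin to the membrane to switch Ras off. Both members were higher in CD34lo. The same upstream stretches of Spred1 (chr2:117120821-117121070, plus strand) and Spred2 (chr11:19924192-19924441, plus strand, both GRCm38.p6) are printed because each held the ETS letters, with capitals for CGGAAG or CTTCCG and for GGGCGG or CCGCCC.
Spred1: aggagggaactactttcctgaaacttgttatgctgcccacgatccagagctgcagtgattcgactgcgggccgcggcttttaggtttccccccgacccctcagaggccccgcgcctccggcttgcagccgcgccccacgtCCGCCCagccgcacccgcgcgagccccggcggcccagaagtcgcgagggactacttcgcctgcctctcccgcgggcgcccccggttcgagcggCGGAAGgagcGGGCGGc
Spred2: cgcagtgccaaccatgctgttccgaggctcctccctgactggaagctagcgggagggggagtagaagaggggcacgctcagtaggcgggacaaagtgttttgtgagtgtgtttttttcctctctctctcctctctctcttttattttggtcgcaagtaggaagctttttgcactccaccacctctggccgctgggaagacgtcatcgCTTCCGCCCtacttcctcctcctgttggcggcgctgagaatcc
In Spred1 the ETS letters began 17 bases before the start site, and in Spred2 they began 43 bases before it on the reverse strand, where they shared 3 letters with a GC box. Of the 9 promoter windows of the members (8 genes, of which Fgfr3 has 2 windows; Fgfr1 and Spry4 were not analysed here), 3 held the ETS letters, the remaining one being that of Fgfrl1, against 13.6% of the 32851 promoters in the table. The GC box was in 7 of 9 against 32.7%, and CCAAT (either strand) was in 3 of 9 against 33.8%. None of the 9 windows held TGACTCA (AP-1, in 4.5% of all promoters), TGACGTCA (CRE, 1.5%), GACCACCCA (GLI, 0.2%) or TATAAA (12.4%), each searched on both strands. These matches describe letters in 250 bases and do not show binding.

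Spred1 (gene 114715, chr2:117121450-117179337, plus strand) had 65.5, 52.9 and 51.4 CPM in CD34hi and 161, 95.9 and 147 CPM in CD34lo. The CD34lo library of pool 2 was well below the other two CD34lo libraries but above every CD34hi library. Its log2 fold change was -1.25 (SE 0.20, adjusted p = 0.00138, edgeR), with -0.86 in pool 2 against -1.3 and -1.51 in pools 1 and 3.

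Spred2 (gene 114716, chr11:19924442-20022597, plus strand) differed by a similar factor with a much smaller spread. It had 19.3, 16.0 and 18.6 CPM in CD34hi and 36.3, 36.9 and 38.2 CPM in CD34lo, a log2 fold change of -1.05 (SE 0.12, adjusted p = 0.000204, edgeR). The third Spred gene, Spred3, which was no member of the set, had means of 7.2 and 5.77 CPM and did not pass (log2 fold change 0.32, 95% interval -0.14 to 0.79, adjusted p = 0.252, edgeR). The share of Spred1 in the summed Spred RPKM overlapped between the populations (66.3% to 72.7% in CD34hi, 68.9% to 79.5% in CD34lo), as did that of Spred2, whereas the small share of Spred3 did not (4.9% to 8.65% in CD34hi, 1.84% to 3.4% in CD34lo).

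Ordered by RPKM, the 10 genes ranked differently in the populations. In CD34hi the order was Spry2 (153 RPKM), Fgfr1 (133), Spred1 (18.9), Spred2 (6.25), Spry1 (5.55), Fgfrl1 (4.35), Spry4 (2.25), Fgfr2 (1.69), Fgfr3 (0.263) and Fgfr4 (0.00941), and only Spred2 with Spry1 and Spry1 with Fgfrl1 overlapped as neighbours. In CD34lo it was Spry1 (67.0 RPKM), Fgfr1 (50.9), Spred1 (44.9), Spry2 (36.1), Spry4 (17.4), Spred2 (12.9), Fgfrl1 (8.08), Fgfr2 (7.84), Fgfr3 (1.92) and Fgfr4 (0.182). Here the libraries of Fgfr1 and Spred1, of Spred1 and Spry2, and of Fgfrl1 and Fgfr2 overlapped. By these means Spry1 stood at the top in CD34lo and at rank 5 in CD34hi, whereas Fgfr1 had rank 2 in both. In CD34lo that rank of Fgfr1 rested on pool 2 (58.9 RPKM, against 32.0 for Spred1). In pools 1 and 3 Spred1 (53.8 and 49.0 RPKM) was above Fgfr1 (50.1 and 43.5 RPKM).

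The genes whose pattern over the 6 libraries was nearest to that of a member were found by the root mean square distance of log2 CPM after centring, over 10363 genes. Nearest to Fgfr3, the tested receptor with the largest change, were Mdk, a heparin-binding growth factor gene (distance 0.148), Rasd1, which encodes a small Ras-related GTPase (0.149), and Ptger4, a prostaglandin E2 receptor gene (0.149). Nearest to Spry1 were Sema5a, a semaphorin gene (0.133), Wdr86 (0.168) and Pde11a, a phosphodiesterase gene (0.169). The log2 fold changes of these 6 genes lay between -3.77 and -2.67, and their likeness to those of Fgfr3 and Spry1 follows from the way they were picked.

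The rest of the pathway was read from fixed lists, also chosen with earlier results of these data known and read as descriptions, not tests. They held 117 genes without the members, 104 of which were tested. Of these, 20 were higher in CD34hi, 34 were higher in CD34lo and 50 did not pass; 51.9% passed, against 35.6% of all tested genes, and the median log2 fold change was -0.07.

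Of 22 FGF genes, 15 were tested, 2 were higher in CD34hi, 5 were higher in CD34lo and 8 did not pass. The tilt to CD34lo depended on the low-count filter. With 10 counts or more required in every library, 3 passed, 2 higher in CD34hi and 1 in CD34lo. Fgf21, Fgf13, Fgf12 and Fgf23 each had a CD34hi library under 10 counts and were not tested then. Fgf2, a broadly acting FGF without a classical signal peptide, had 20.4, 18.8 and 13.5 CPM in CD34hi and 2.31, 2.41 and 1.29 CPM in CD34lo (log2 fold change 3.13, SE 0.27, adjusted p = 4.44e-05, edgeR). Its value rests on a gene model of 695 bases, and its opposite-strand neighbours differed in the same direction: Nudt6, 153 bases past its end, had a log2 fold change of 2.8 (adjusted p = 5.09e-05), and Fgf2os, which overlaps its start, had 4.81 (adjusted p = 5.2e-05). The library kit does not mark strand, so that reads from these genes cannot be fully told apart. The other gene higher in CD34hi, named after its values were seen, was Fgf18 (24.6 and 5.43 CPM, log2 fold change 2.18, adjusted p = 0.000169).

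On the CD34lo side, Fgf10, the stromal ligand of the epithelial Fgfr2 form, had 42.1, 37.9 and 42.8 CPM in CD34hi and 69.5, 105 and 96.2 CPM in CD34lo (log2 fold change -1.14, SE 0.16, adjusted p = 0.000706, edgeR). Fgf7, which acts on the same receptor form, had means of 46.8 and 59.0 CPM, its libraries overlapped, and it did not pass (log2 fold change -0.33, 95% interval -0.81 to 0.15, adjusted p = 0.255). Fgf21, an endocrine FGF known from liver, was at 0.47, 0.0276 and 0.441 CPM in CD34hi and at 10.9, 12.3 and 9.19 CPM in CD34lo (log2 fold change -5.04, SE 0.50, adjusted p = 0.000102), the largest change in the lists. The CD34hi library of pool 2 had 1 count of Fgf21. Klb, which encodes the β-Klotho co-receptor that Fgf21 needs, did not pass, and had means of 0.541 and 0.713 CPM. Fgf13, an intracellular FGF homologous factor, had means of 0.48 and 5.06 CPM (log2 fold change -3.37, adjusted p = 0.000303), and Fgf12, of the same group and named after its values were seen, had -1.98 (adjusted p = 0.0113), and did not pass without the CD34hi library of pool 2 or without pool 2 (adjusted p up to 0.106). The endocrine gene Fgf23 passed narrowly (log2 fold change -2.25, adjusted p = 0.0449, edgeR) at means of 0.285 and 1.35 CPM, and did not pass in 7 of the alternatives, where adjusted p lay between 0.0592 and 0.146; 6 of them left out libraries (the CD34hi library of pool 1 or 3, the CD34lo library of pool 1 or 2, or both libraries of pool 1 or 2).

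Genes that help FGFs reach or hold their receptors formed a further list. Of 10 co-receptor and carrier genes, 9 were in the table and 7 were tested; 4 were higher in CD34hi (Flrt2, Flrt3, Fgfbp3 and Cdh2) and 1 in CD34lo, with a median log2 fold change of 1.01. Flrt2 and Flrt3, membrane proteins that bind FGF receptors and guidance receptors, had log2 fold changes of 1.92 (504 and 133 CPM, adjusted p = 0.000154, edgeR) and 2.08 (42.8 and 10.1 CPM, adjusted p = 1.69e-05). Their relative Flrt1 went the opposite way at a far lower level (0.122 and 0.815 CPM, -2.67, adjusted p = 0.00335). It had 7, 2 and 7 counts in the CD34hi libraries and passed the low-count filter only through its CD34lo libraries. Fgfbp3, an FGF carrier gene, had 1.55 (adjusted p = 0.0136), and did not pass without the CD34hi library of pool 1 or without both libraries of pool 1 or 2, when adjusted p was 0.0533, 0.129 and 0.0877. Cdh2, N-cadherin, named after its values were seen, had 1.01 (adjusted p = 0.0114), and did not pass without any 1 of the pools, with adjusted p up to 0.0625. Without pool 1 or without pool 2, 3 genes of this list passed instead of 5.

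Of 14 heparan sulfate genes, 13 were tested, 7 were higher in CD34hi and 1, Hs2st1, was higher in CD34lo (log2 fold change -0.37, adjusted p = 0.0383, edgeR). Hs2st1, a 2-O-sulfotransferase gene named after its values were seen, did not pass in 8 of 18 alternatives (adjusted p up to 0.178): without the filter, without the CD34hi library of pool 1 or 2, without the CD34lo library of pool 1 or 3, and without any 1 of the pools. The median of the list was 1.04. Glce, the epimerase of the chain, had 135 and 27.2 CPM (log2 fold change 2.31, adjusted p = 3.02e-05), and Hs3st1, a 3-O-sulfotransferase, had 31.5 and 8.08 CPM (1.97, adjusted p = 5.77e-05). Genes that take sulfate off or cut the chain were on the same side: Sulf1, a 6-O-endosulfatase, had 310 and 73.9 CPM (2.07, adjusted p = 3.79e-05), and Hpse, heparanase, had 94.6 and 22.2 CPM (2.10, adjusted p = 5.77e-05).

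Between the receptor and ERK, the share of genes that passed was 28.6% for the adaptors and 40.0% for the cascade, near the 35.6% of all tested genes. Of 14 adaptor and receptor-proximal genes, all tested, 2 were higher in CD34hi (Crk, log2 fold change 0.67, adjusted p = 0.00275, and Cblb, 0.38, adjusted p = 0.034, edgeR), 2 were higher in CD34lo (Gab1, -0.51, adjusted p = 0.00581, and Cbl, -0.43, adjusted p = 0.0191) and 10 did not pass. Frs2, the docking protein of FGF receptors, had means of 42.9 and 52.0 CPM and did not pass. Crk passed in all 18 alternatives. Gab1 did not pass without pool 1 or 2 (adjusted p of 0.101 and 0.0719), Cbl did not pass without the CD34hi library of pool 1 or 2, the CD34lo library of pool 3 or any 1 of the pools (0.0575 to 0.133), and Cblb did not pass with upper-quartile scaling or without either library of pool 2 or 3 or the whole of either pool (0.0591 to 0.194). Without pool 2, Crk was the only gene of this list to pass, and 2 passed without pool 1, without the CD34hi library of pool 2 or without the CD34lo library of pool 3. Of 15 genes of the Ras to ERK cascade, 4 were higher in CD34hi, 2 in CD34lo and 9 did not pass, with a median of -0.02. The largest were Rasa1, a Ras GTPase-activating protein gene (69.8 and 179 CPM, log2 fold change -1.36, adjusted p = 0.000769), and Rras, a Ras relative (56.8 and 23.1 CPM, 1.30, adjusted p = 8.31e-05). Map2k1 (0.52, adjusted p = 0.00323), which encodes MEK1, did not pass without pool 2 (adjusted p = 0.0594), when 2 genes of this list passed instead of 6. Braf, named after its values were seen, had -0.48 (adjusted p = 0.00685), and did not pass without pool 1 or without pool 2 (adjusted p up to 0.0821).

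**Figure D4:**
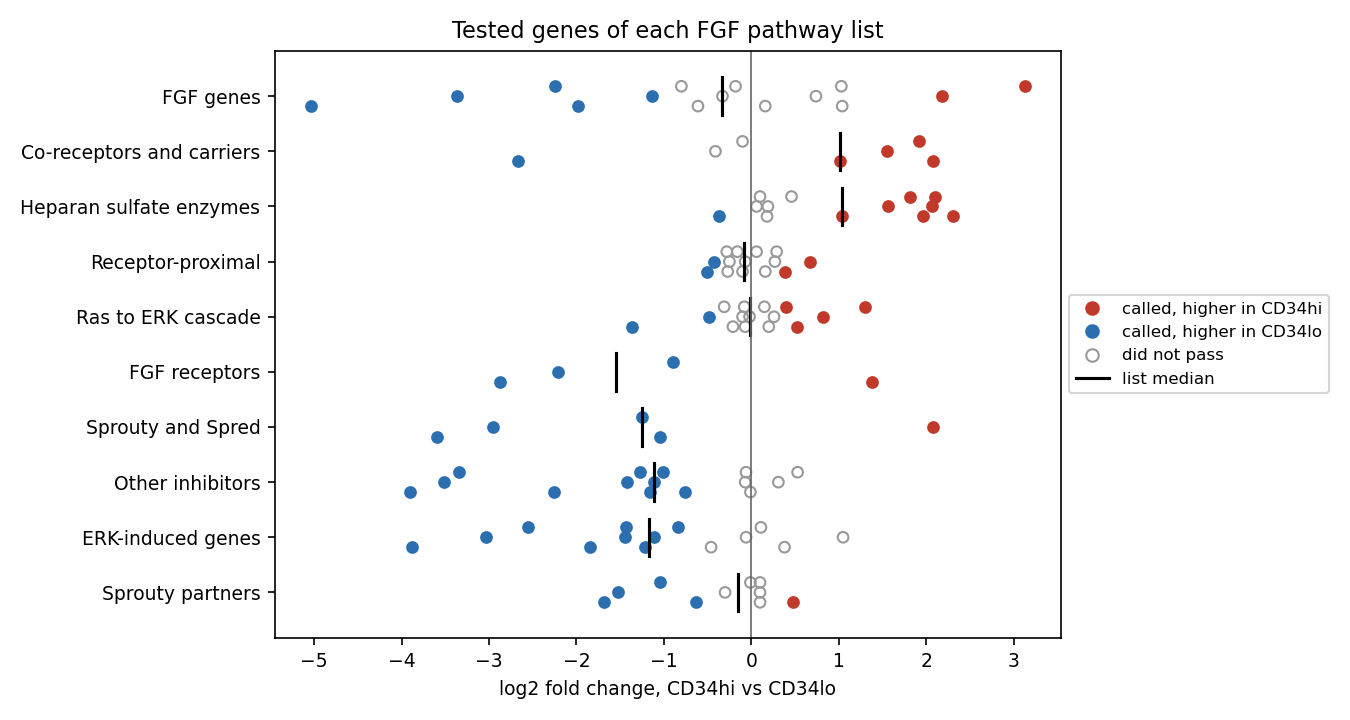
Log2 fold change (CD34hi vs CD34lo) of every tested gene in each list of the FGF pathway; filled points passed (red higher in CD34hi, blue higher in CD34lo), open points did not, and black ticks are list medians. The co-receptor and heparan sulfate medians lie near 1 on the CD34hi side, and those of the other inhibitors (-1.11) and the ERK-induced genes (-1.17) lie on the CD34lo side with the Sprouty and Spred genes (-1.25).

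The other inhibitors of the pathway that passed had the direction of Spry1 and Spry4. Of 16 such genes, 15 were tested, 10 were higher in CD34lo and 0 were higher in CD34hi (also 0 at an unadjusted p under 0.05 in edgeR, and 0 in limma-voom and in DESeq2), and 5 did not pass. Under the replicate block (the mouse pool as a term of the model), 1 was higher in CD34hi and 10 were higher in CD34lo. Without pool 3, 1 was higher in CD34hi and 9 were higher in CD34lo. Dusp6, the cytoplasmic phosphatase of ERK, had 7.56, 7.01 and 9.17 CPM in CD34hi and 116, 80.2 and 160 CPM in CD34lo (log2 fold change -3.91, SE 0.26, adjusted p = 1.31e-05, edgeR). Dusp4 and Dusp5, nuclear phosphatases of MAP kinases, had -3.34 (1.86 and 18.9 CPM, adjusted p = 1.4e-05) and -2.26 (6.47 and 31.0 CPM, adjusted p = 2.57e-05). Dusp9 had -3.52 (0.181 and 2.03 CPM, adjusted p = 0.00425), with its highest level, 3.74 CPM, in the CD34lo library of pool 1. The CD34hi library of pool 3 had 2 counts of Dusp9, which was not tested when 10 counts or more were required in every library. Among those that did not pass were Dusp1, a stress-induced phosphatase (2150 and 2240 CPM, log2 fold change -0.06, adjusted p = 0.841), and Il17rd, also called Sef (39.4 and 41.5 CPM, -0.07, adjusted p = 0.759). Dusp8 lay on the CD34hi side (51.6 and 35.7 CPM, 0.53) and did not pass either (adjusted p = 0.118, edgeR). With the replicate block in edgeR, Dusp8 passed as higher in CD34hi (adjusted p = 0.0066).

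Of 14 genes known to be induced by ERK, all tested, 9 were higher in CD34lo, 0 were higher in CD34hi and 5 did not pass; at an unadjusted p under 0.05, 1 was higher in CD34hi in edgeR, and 1 passed in that direction in DESeq2 and 0 in limma-voom. The replicate block in edgeR gave 1 higher in CD34hi and 9 higher in CD34lo. Without the low-count filter, without pool 3 or without the CD34hi library of pool 3, 1 was likewise higher in CD34hi. Etv4 and Etv1, ETS factors of the group that FGF signalling induces, had log2 fold changes of -3.88 (SE 0.59, adjusted p = 0.00105, edgeR) and -1.84 (SE 0.26, adjusted p = 0.00068). Etv4 varied widely in CD34lo, with 36.9, 6.76 and 23.9 CPM against 2.15, 0.966 and 1.46 CPM in CD34hi. Egr2 and Egr3, zinc finger factors, had 93.6 and 548 CPM (-2.55, adjusted p = 3.71e-06) and 10.0 and 82.7 CPM (-3.04, adjusted p = 9.2e-06). Egr1 (5360 and 7360 CPM, -0.46, adjusted p = 0.101) and Myc (517 and 539 CPM, -0.06, adjusted p = 0.867) did not pass. In contrast to the list, Fosl1 lay on the CD34hi side (12.8 and 6.15 CPM, log2 fold change 1.05) without passing (adjusted p = 0.0642, edgeR). With the replicate block in edgeR, Fosl1 passed as higher in CD34hi (adjusted p = 0.000499). Ccdc85b, on the opposite strand, overlaps Fosl1, with 7031 counts over all libraries against 2327.

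**Figure D5:**
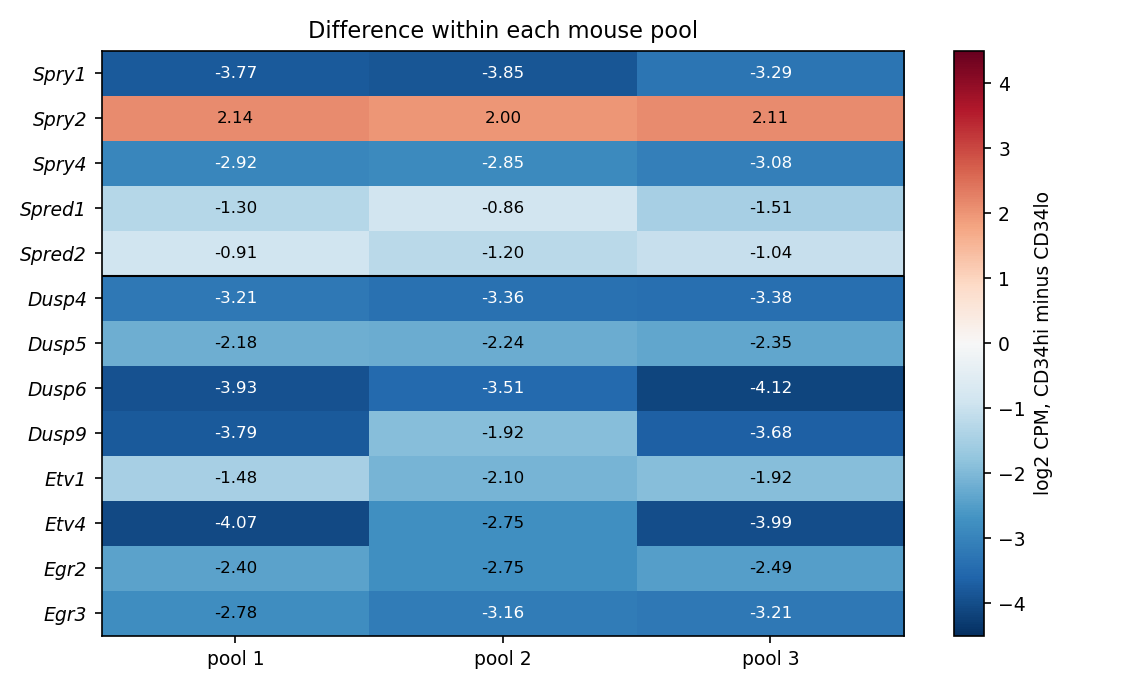
Difference of log2 CPM, CD34hi minus CD34lo, within each mouse pool for the Sprouty and Spred genes (above the line) and for the called phosphatase, ETS and Egr genes named in the text (below it); the colour scale is log2, blue higher in CD34lo. Every gene but Spry2 is negative in all 3 pools, and the pool 2 differences of Dusp9 (-1.92) and Etv4 (-2.75) are the smallest of their rows.

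Of 10 genes whose products bind or modify Sprouty proteins, all tested, 4 were higher in CD34lo, 1 was higher in CD34hi and 5 did not pass. Cav2 and Cav1, caveolins, had log2 fold changes of -1.69 (3.1 and 10.0 CPM, adjusted p = 0.00153, edgeR) and -1.05 (66.9 and 139 CPM, adjusted p = 0.00371). Siah2, a ubiquitin ligase that targets Sprouty proteins, had -1.52 (10.0 and 28.5 CPM, adjusted p = 0.000486), and Dyrk1a, a kinase, had -0.63 (adjusted p = 0.00771), which did not pass without pool 2 (adjusted p = 0.0947). The gene higher in CD34hi was Nedd4, another ubiquitin ligase gene, named after its values were seen (1550 and 1110 CPM, 0.48, adjusted p = 0.0298). It did not pass in 8 of 18 alternatives (adjusted p up to 0.16), namely with upper-quartile scaling, without the CD34hi library of pool 2 or 3, without the CD34lo library of pool 1 or 3, and without any 1 of the pools. Without pool 2, 3 genes of this list passed instead of 5.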

How the data were processed

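Bulk RNA-seq libraries of CD34hi and CD34lo fibroblasts were prepared by the authors with a TruSeq kit that does not mark strand, and the reads were aligned to GRCm38/mm10 and counted on genes with Rsubread. The authors deposited raw whole-number counts (no scaling, no low-count filter) beside each gene's position and length. The annotation, strand setting and treatment of multi-mapping reads are not given in the sources used here, and no deposited columns were left out.

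Symbols were taken from a RefSeq gene table, in which 25275 of 27179 genes had one. Groups came from the labels. The analysis used edgeR 4.0.16 under R 4.3.3 (filterByExpr by population, TMM factors 0.967 to 1.04, quasi-likelihood test, threshold 0.05 on Benjamini-Hochberg adjusted p). The biological coefficient of variation was 19.7%. Log2 CPM used a prior count of 2, and RPKM is TMM-scaled CPM per kilobase of the deposited length. The SE is the size of the log2 fold change over the square root of F. The steps were tested on simulated data. The pools are separate animals, so that the spread between libraries of a population covers animals and handling together.

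Same-numbered libraries came from the same pool of mice. The correlation of their deviations from the population means, across genes, was 0.279, 0.0844 and 0.243. The pool was not in the reported model and was a replicate block in an alternative.

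The alternatives were limma-voom (limma 3.58.1), DESeq2 1.42.0, RLE and upper-quartile scaling, no filter, a filter of 10 counts or more per library, the mouse pool as replicate block in edgeR and limma-voom, counts thinned to 28764779, each pool and each library left out, a minimum log2 fold change of 1 in size, and an adjusted p under 0.01. Repeating the lists under all of them, and the values of Fgfr4, were added after seeing the data. Shares were compared by exact permutation tests (scipy 1.17.1).

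The members and lists were chosen with earlier results of these data known. All members are named, and from each list the called genes among its 4 largest changes, the 3 FGF genes with the highest mean RPKM, Spry3 and Spred3, and the 3 genes nearest in pattern to the receptor and to the Sprouty or Spred gene with the largest change (mean log2 CPM of at least 2). Genes outside this rule are so marked or given as contrasts. Upstream sequences are RefSeq's (GRCm38.p6), matched by symbol for 8 of 10 members. Some genes of the lists are counted but not reported singly.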

Additional observations from a re-analysis of the deposited data

How the results depend on the processing

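Each of the 9 tested members kept its direction and its adjusted p-value under 0.05 in all 18 alternative analyses (162 comparisons), with the highest adjusted p at 0.027 for Spred1 and 0.0253 for Fgfrl1. The number of members called was 9 to 10 when pools or libraries were left out, and 9 with the replicate block in edgeR. The tenth was Fgfr4, which entered the fits with libraries left out only through its CD34lo libraries. Of 751 comparisons for the 42 other genes that the naming rule gave, 723 stayed on their side of the threshold, 28 kept their direction and no longer passed, and none reversed. The 6 genes named after their values were seen (Fgf12, Fgf18, Cdh2, Braf, Nedd4 and Hs2st1) did not pass in 23 of 107 further comparisons.

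Over all genes, 5411 differed, 6161 with the replicate block, 3468 to 5236 with pools or libraries left out (3468 without pool 1) and 2986 when a log2 fold change of 1 or more in size was required. The replicate block changed no call of a member, and among the lists it added Fgf9, and 1 gene higher in CD34hi to each of the inhibitor and ERK-induced lists. Of the pathway genes, 54 passed, 57 with the replicate block and 39 to 54 with libraries left out. With 10 counts or more required in every library, 48 passed, 20 higher in CD34hi and 28 in CD34lo, against 20 and 34. The Fgfr1 share differed by 13.6 to 17.3 points and the Spry1 share by -53.8 to -49.8 points with libraries left out; within pools (replicate block) the exact sign-flip permutation test gave p = 0.25 for both, the smallest it allows. Upper-quartile scaling moved the median over all genes to a log2 fold change of -0.0587 (2284 higher in CD34hi and 3128 in CD34lo, against 2570 and 2841). Fgfr4, with 4 and 63 counts, was the member that its low level kept from the reported test.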

Other observations

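Fgf2 and Spry1, which had opposite directions, lie on the same chromosome with few genes between them; the stretch was looked at after their values were seen. In the coordinates of the table, Spry1 starts 235119 bases past the end of Fgf2 on chromosome 3. The first gene after Fgf2 is Nudt6, a nudix hydrolase gene on the minus strand, which had 45.5, 43.2 and 28.3 CPM in CD34hi and 5.94, 6.83 and 4.05 CPM in CD34lo. The next is Spata5, which encodes an AAA ATPase, with 12.9, 12.7 and 6.79 CPM in CD34hi and 12.6, 9.17 and 10.7 CPM in CD34lo (log2 fold change -0.01, SE 0.25, adjusted p = 0.977, quasi-likelihood test in edgeR, Benjamini-Hochberg). Beyond Spata5 there is 1 gene without a symbol, which overlaps Spry1 and was too low to be tested. Along this stretch the genes on the Fgf2 side were therefore higher in CD34hi, Spata5 did not pass, and Spry1 was higher in CD34lo. Nudt6 lies 153 bases past Fgf2 on the opposite strand, and the library kit does not mark strand. Their reads cannot be fully told apart, so that their shared direction was not shown separately for each. No chromatin or promoter measurement was used here.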
